A study of Arabidopsis thaliana with 12 samples.

Results

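Transcript levels in cnu2, a suppressor mutant of the PMEIox line, were compared with those in PMEIox itself across all 27827 measured loci. The 6 arrays of the comparison were those titled cnu2 A, B and C and PMEIox A, B and C, out of 12 arrays in the series. All RNA came from whole Arabidopsis thaliana seedlings in the Col-0 background. The seedlings had 48 h of cold and 6 h of white light at 100 µmol per square metre and second, and then stayed in darkness at 22 °C for 4 days on medium without sugars. The other groups were the wild type Col-0 and cnu1, also a suppressor mutant of PMEIox, with 3 arrays each.

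PMEIox is a transformant that overexpresses PMEI5 (AT2G31430), an inhibitor of pectin methylesterases. Both suppressor mutants carry this transgene too, so cnu2 and PMEIox share it and differ, as far as the study describes, by the cnu2 mutation. The cnu2 mutation is known to lie in RLP44 (AT3G49750) and the cnu1 mutation in BRI1 (AT4G39400), but the labels name neither gene. The labels also give no promoter for the transgene, no number of seedlings per sample and no sign that cnu2 stands for more than 1 line.

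Pectin methylesterases take methyl groups off pectin in the cell wall, which changes how firmly the pectin network holds, and inhibitors such as PMEI5 block them. RLP44 is a receptor-like protein of the plasma membrane that lacks a kinase domain and acts with BRI1, the brassinosteroid receptor, and its partner BAK1. Brassinosteroids are steroid hormones that drive cell elongation in dark-grown seedlings, and their signalling represses the genes of their own synthesis. The comparison asked what changes in seedlings that overexpress the inhibitor when RLP44 is mutated.

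In cnu2, 9 of 10 transcripts of seed storage proteins and 7 of 10 of late embryo and oil body proteins fell, and 5 of 10 of brassinosteroid synthesis and 7 of 14 of the secondary cell wall rose. These lists were chosen with earlier results of these data known, so their counts describe the members and are no independent test. Of 27827 loci, 905 passed the test (3.25%), with 494 higher in cnu2 (1.78%) and 411 lower (1.48%). Each count of list members called against PMEIox is to be read beside these shares. A difference of at least 2-fold was measured at 196 of them (0.704%), of which 81 were higher and 115 lower. The test was limma's at an adjusted p under 0.05, and the spread between the 3 biological replicates, harvested in successive weeks, is what its p-values measure. Leaving out PMEIox A, B or C gave 428, 581 and 465 loci, and leaving out cnu2 A, B or C gave 507, 395 and 602. When each array was centred on 8 reference genes, 267 loci were higher and 603 lower. The share of higher loci was then 30.7% in place of 54.6%, because the reference genes stood 0.0771 higher in cnu2 on the log2 scale.

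**Figure D1:**
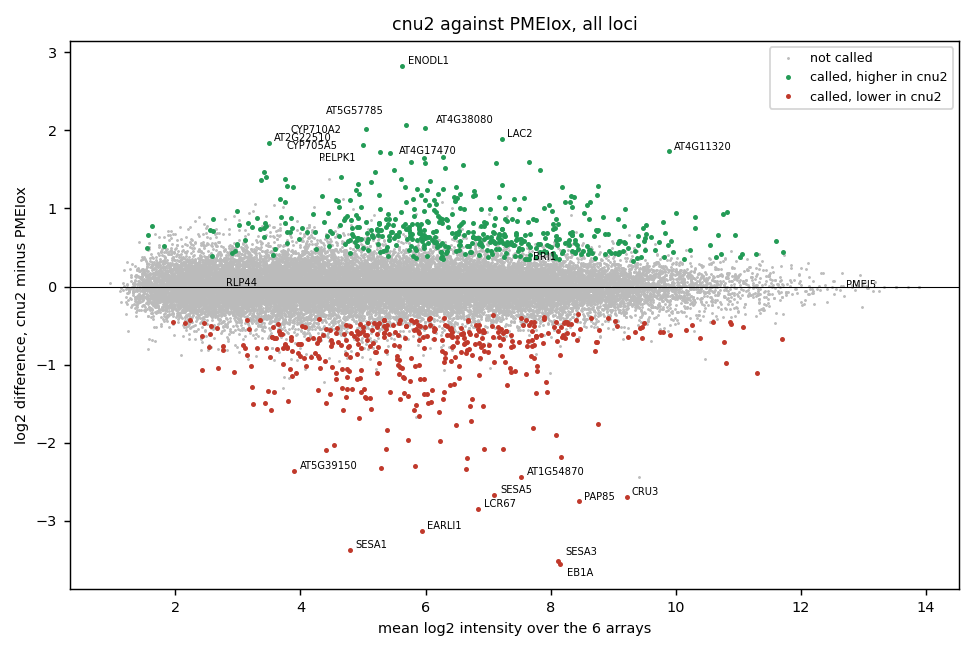
Log2 difference between cnu2 and PMEIox (vertical axis) against the mean log2 intensity over the 6 arrays (horizontal axis) for all loci, with the 494 called loci higher in cnu2 in green and the 411 lower in red. ENODL1 at 2.83 and EB1A at -3.55 mark the ends of the range among called loci, and PMEI5, RLP44 and BRI1 lie among the loci that were not called.

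PMEI5 stood at 12.69, 12.64 and 12.64 on the PMEIox arrays and at 12.53, 12.62 and 12.69 on the cnu2 arrays, in log2 intensity. The ranges overlapped, and the difference was -0.05 ± 0.67 (SE, adjusted p = 0.982). This SE is wide because it pools the genotypes and the Col-0 arrays spread from 4.49 to 8.19. All 6 values lay above every Col-0 value, so the transgene transcript was high in the parent and in the suppressor.

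RLP44 stood at 2.78, 2.66 and 2.73 in PMEIox and at 2.66, 2.84 and 2.65 in cnu2. Both genotype means are among the lowest 15% of all values, which end at 2.83, and cnu2 B alone lies just above that limit. The difference was -0.01 ± 0.20 (SE, adjusted p = 0.988), and a change in the protein sequence is not seen by such an array, so RLP44 does not check the label of cnu2. BRI1 stood at 7.52, 7.52 and 7.35 in PMEIox and at 7.86, 7.75 and 7.76 in cnu2. All 3 cnu2 values were above all PMEIox values, as was so for 22.6% of all loci with either genotype above, but the difference of 0.32 ± 0.09 (SE) did not pass the test (adjusted p = 0.0935).

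The genes beside RLP44 in chromosome order were read as well. AT3G49744 stood at 3.53, 2.83 and 3.69 in PMEIox and at 4.15, 4.21 and 4.12 in cnu2, and rose by 0.81 ± 0.18 (SE, adjusted p = 0.0336). Its call was lost on leaving out PMEIox A or any 1 of the cnu2 arrays (adjusted p up to 0.108). AT3G49740, bZIP5 (AT3G49760) and AT3G49770 were not called, with log2 differences of -0.19, -0.03 and -0.12. PSK4 (AT3G49780), numbered just beyond AT3G49770, was called higher and is given with the phytosulfokine genes. Over the chromosomes, the called share ran from 2.79% on chromosome 1 to 3.77% on chromosomes 2 and 4.

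Among the called falls, that of EB1A (AT3G47690), which encodes a protein that binds growing microtubule ends, was the largest. EB1A stood at 10.09, 9.51 and 10.17 in PMEIox and at 6.51, 6.29 and 6.33 in cnu2. The gap between the genotypes was several times the range within either, and the fall was 11.7-fold (log2 difference -3.55 ± 0.16, SE, adjusted p = 7.99e-07). In Col-0 the arrays read 6.37, 6.12 and 6.18, so the cnu2 values overlapped those of wild type. The related genes EB1B and EB1C were not called, with differences of 0.03 and 0.12.

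EARLI1 (AT4G12480), which encodes a hybrid proline-rich protein of the lipid transfer type, also fell. It stood at 7.72, 7.40 and 7.39 in PMEIox, at 4.37, 4.92 and 3.84 in cnu2, and at 3.13, 3.80 and 2.77 in Col-0. The cnu2 values lay below all PMEIox values and above all Col-0 values. The difference from PMEIox was -3.13 ± 0.37 (SE, adjusted p = 0.00077) and that from Col-0 was 1.15 ± 0.37 (SE, adjusted p = 0.264). Its neighbour AZI1 (AT4G12470), of the same protein family and known from defence priming, was not called against PMEIox. AZI1 had group means of 10.33 in PMEIox, 10.43 in cnu2, 9.06 in Col-0 and 9.44 in cnu1, so it differed between cnu2 and Col-0 by 1.37 (adjusted p = 0.00584) and between cnu2 and PMEIox by 0.10 (adjusted p = 0.809). Transcripts of such close copies can share probes on an array.

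Seed storage proteins are made in the maturing embryo and are used up after germination. Of 10 genes on the storage list, 9 fell and 0 rose, with a median log2 difference of -2.55, against a median of all loci near 0. SESA3 (AT4G27160), an albumin gene, stood at 9.86, 10.05 and 9.72 in PMEIox and at 5.96, 6.40 and 6.75 in cnu2. Its 2 groups lay far apart, and the fall was 11.4-fold (adjusted p = 5.04e-06). SESA1 (AT4G27140), also an albumin gene, stood at 6.15, 6.79 and 6.49 in PMEIox and at 3.27, 3.3 and 2.75 in cnu2, a fall of 3.37 ± 0.20 (SE) on the log2 scale.

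SESA1, SESA2, SESA3 and SESA4 lie next to each other on chromosome 4 and were the single run of at least 3 neighbouring loci called in the same direction. Members of the family can share probe sequence, so their values are not independent. SESA5 (AT5G54740), an albumin gene on another chromosome, fell by 2.67. PAP85 (AT3G22640), a vicilin gene, stood at 9.70, 9.80 and 9.97 in PMEIox and at 6.74, 7.11 and 7.37 in cnu2, with no overlap (log2 difference -2.75 ± 0.18, SE, adjusted p = 1.3e-05).

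The cruciferin genes varied more among the cnu2 arrays. CRU3 (AT4G28520) stood at 6.91, 8.08 and 8.61 in cnu2 against 10.35, 10.64 and 10.71 in PMEIox, a difference of -2.70 ± 0.42 (SE, adjusted p = 0.0043). CRA1 (AT5G44120), the list member that did not pass, had means of 10.64 in PMEIox and 8.20 in cnu2 (adjusted p = 0.0876). Beside Col-0, 0 of the 10 storage genes were called in cnu2, near the share of 0.187% of all loci called in that comparison. The mean over the list ran from 8.11 to 8.49 on the PMEIox arrays, from 5.56 to 6.33 on those of cnu2 and from 5.63 to 5.85 on those of Col-0. In whole seedlings, fewer cells of a kind and less RNA per cell cannot be told apart.

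**Figure D2:**
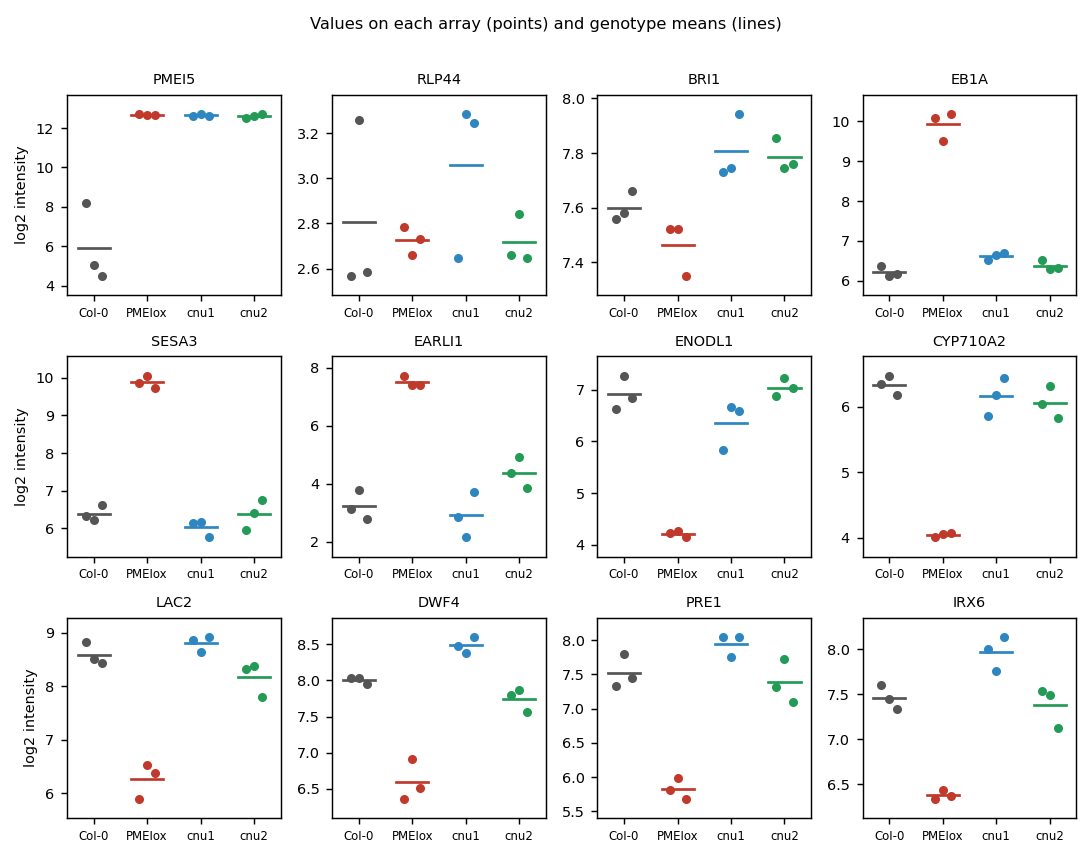
Log2 intensity of 12 genes on each of the 12 arrays, by genotype, with points for arrays A, B and C and a line for each genotype mean. EB1A, SESA3 and EARLI1 stand high in PMEIox alone, ENODL1, CYP710A2, LAC2, DWF4, PRE1 and IRX6 stand low in PMEIox alone, and PMEI5 stands near 12.6 in each line that carries the transgene.

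Late embryo proteins guard the drying seed, and oleosins coat its oil bodies. Of 10 such genes 7 fell and 0 rose (median -1.28). OLEO1 (AT4G25140), an oleosin gene, stood at 7.19, 7.87 and 7.71 in PMEIox and at 5.79, 5.74 and 6.06 in cnu2, and fell 3.31-fold without overlap (adjusted p = 0.000116). EM6 (AT2G40170), M10 (AT2G41280) and the oil body gene ATS1 (AT4G26740) fell by 1.51, 1.31 and 1.15 on the log2 scale. Across the omissions of an array, from 4 to 7 of the 10 genes were called.

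The regulators that switch on seed maturation did not pass the test. Of 7 of them, among them ABI3, FUS3, LEC1 and LEC2, 0 were called, with 2 at an unadjusted p under 0.05 and differences from -0.25 for ABI3 to 0.36 for FUS3. Of 10 genes that break down seed oil, 3 fell. MLS (AT5G03860), malate synthase of the glyoxylate cycle, stood at 9.57, 9.54 and 9.83 in PMEIox and at 7.92, 7.57 and 8.16 in cnu2, a fall of 1.76 ± 0.17 (SE, adjusted p = 0.000197). ICL (AT3G21720), the isocitrate lyase of the same cycle, fell by 1.1, and MFP2 (AT3G06860), an enzyme of fatty acid oxidation, by 0.41. The ICL call was lost without PMEIox C or cnu2 B (adjusted p up to 0.0556), and the MFP2 call on leaving out any 1 of the 6 arrays (adjusted p up to 0.0836).

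Further large falls were those of LCR67 (AT1G75830), a defensin-like gene, AT1G54870 and AT5G39150. LCR67 stood at 7.94, 8.04 and 8.82 in PMEIox and at 4.51, 5.29 and 6.48 in cnu2. Its difference of -2.84 ± 0.53 (SE, adjusted p = 0.0131) did not pass without PMEIox C or cnu2 B (adjusted p up to 0.058). AT1G54870 fell by 2.44. AT5G39150 stood at 5.58, 5.0 and 4.67 in PMEIox and had a cnu2 mean of 2.72, among the lowest values, so its log2 difference of -2.36 is a lower bound in size.

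Among the called rises, that of ENODL1 (AT5G53870), which encodes an early nodulin-like protein, was the largest. ENODL1 stood at 4.22, 4.26 and 4.15 in PMEIox and at 6.87, 7.22 and 7.03 in cnu2, with Col-0 at 6.62, 7.27 and 6.83. The cnu2 arrays lay within the Col-0 range or next to it and far above PMEIox, and the rise was 7.11-fold (log2 difference 2.83 ± 0.21, SE, adjusted p = 3.18e-05). CYP710A2 (AT2G34490), a sterol desaturase gene that makes a plant sterol outside the brassinosteroid branch, stood at 4.00, 4.06 and 4.07 in PMEIox and at 6.04, 6.31 and 5.83 in cnu2. It rose 4.03-fold (adjusted p = 3.27e-05), and its cnu2 values overlapped those of Col-0.

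LAC2 (AT2G29130), a laccase gene, stood at 5.90, 6.53 and 6.37 in PMEIox and at 8.31, 8.38 and 7.80 in cnu2, a rise of 1.89 ± 0.19 (SE, adjusted p = 0.000243). AT5G57785 rose by 2.07, AT4G17470 by 1.71 and AT4G11320, annotated as a cysteine protease gene, by 1.73. The genotypes did not overlap at any of these loci. PELPK1 (AT5G09530), a gene for a proline-rich repeat protein, rose by 1.73 ± 0.40 (SE, adjusted p = 0.0388), but the call was lost in 7 of the 12 fits that left out an array (adjusted p up to 0.141). AT4G38080, AT2G22510 and CYP705A5, the other members of the 10 largest rises, are given with cnu1.

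Several brassinosteroid synthesis transcripts rose in cnu2. Among 10 genes, 5 rose and 0 fell (median 0.53), against 1.78% of all loci called higher. DWF4 (AT3G50660), the early and rate-limiting hydroxylase, stood at 6.36, 6.91 and 6.51 in PMEIox, at 7.80, 7.87 and 7.56 in cnu2 and at 8.04, 8.03 and 7.95 in Col-0. The cnu2 values lay between the other 2 genotypes, nearer to Col-0. DWF4 rose 2.22-fold over PMEIox (log2 difference 1.15 ± 0.14, SE, adjusted p = 0.00077) and differed from Col-0 by -0.26 ± 0.14 (SE, adjusted p = 0.504).

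CPD (AT5G05690), a later oxidase of the pathway, stood at 8.07, 8.16 and 8.33 in PMEIox and at 9.03, 9.08 and 9.04 in cnu2, a rise of 0.86 ± 0.10 (SE, adjusted p = 0.000604). BR6OX2 (AT3G30180), which makes the active brassinolide, stood at 5.67, 6.21 and 5.76 against 7.01, 7.10 and 6.99. It rose by 1.15, CYP90D1 (AT3G13730) by 0.80 and ROT3 (AT4G36380), its near relative, by 0.58. These 5 genes encode cytochrome P450 enzymes of the hormone's own branch. The reductase gene DET2 and the earlier sterol enzyme genes DWF1, DWF5 and STE1 were not called, with differences from -0.16 to 0.09, and BR6OX1 had a difference of 0.48 (adjusted p = 0.101). Across the omissions of an array 4 or 5 of the 10 genes were called, and with centring on the reference genes 4 were called. The ROT3 call was lost in 8 omissions (adjusted p up to 0.151) and with that centring (adjusted p = 0.0737).

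Of 8 genes that inactivate brassinosteroids, 1 rose and 1 fell (median -0.33), against 3.25% of all loci called. BAS1 (AT2G26710), a hydroxylase that inactivates the hormone, stood at 9.81, 9.82 and 9.75 in PMEIox and at 9.17, 9.26 and 9.0 in cnu2, a fall of 0.65 ± 0.11 (SE, adjusted p = 0.00788). PIZ (AT4G31910), an acyltransferase gene, rose by 0.46, and its call was lost in 10 of the 12 fits without an array (adjusted p up to 0.165) and after the arrays were centred on reference genes (adjusted p = 0.11).

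Of 16 receptor and signalling genes, 2 rose and 0 fell (median 0.11), against 1.78% of all loci called higher. BEH1 (AT3G50750) and BEH2 (AT4G36780), both relatives of the transcription factor BZR1, rose by 0.88 ± 0.14 (SE, adjusted p = 0.0048) and 0.68 ± 0.10 (SE, adjusted p = 0.00327). BZR1, BES1, BEH3, BEH4, the kinase BIN2 and the co-receptor BAK1 were not called, with differences from -0.01 to 0.15. Of 17 genes on the list of brassinosteroid-induced genes, 2 rose and 1 fell (median -0.13), against 3.25% of all loci called. PRE1 (AT5G39860), a growth-promoting bHLH gene, stood at 5.81, 5.99 and 5.68 in PMEIox and at 7.32, 7.72 and 7.10 in cnu2, and rose 2.93-fold without overlap (adjusted p = 0.000426). EXL2 (AT5G64260) rose by 0.58. TCH4 (AT5G57560), also an XTH gene, fell by 0.97, and its cnu2 values overlapped those of Col-0.

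RLP44 is also known to act with receptors of phytosulfokine, a sulfated growth peptide. Of 10 genes of phytosulfokine and PSY peptides, 2 rose and 0 fell (median 0.10), against 1.78% of all loci called higher. PSK2 (AT2G22860), a precursor gene, stood at 6.6, 6.49 and 6.57 in PMEIox and at 7.15, 7.60 and 7.37 in cnu2, a rise of 0.82 ± 0.12 (SE, adjusted p = 0.00317). PSK4 (AT3G49780), also a precursor gene, stood at 9.78, 10.08 and 9.94 against 10.57, 10.77 and 10.73, a rise of 0.75 ± 0.11 (SE, adjusted p = 0.00296). Neither gene's values overlapped between the genotypes. By its locus number PSK4 lies near RLP44 (AT3G49750) on chromosome 3, just beyond the neighbours read beside it. A link between this position and the rise of PSK4 was not tested. The receptor genes PSKR1 and PSKR2 differed by -0.34 (adjusted p = 0.429) and 0.15 (adjusted p = 0.778).

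**Figure D3:**
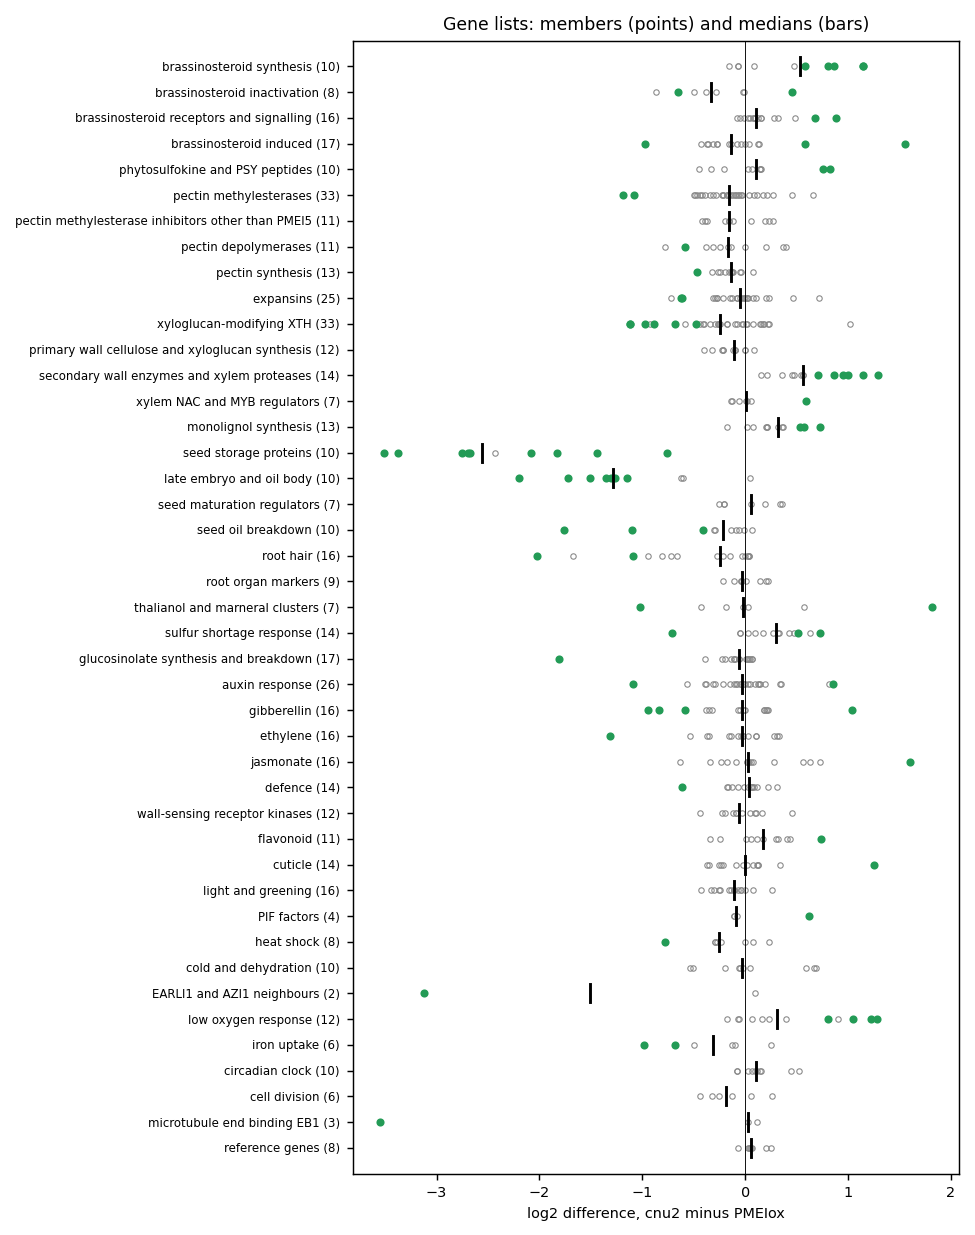
Log2 difference between cnu2 and PMEIox (horizontal axis) for the members of 43 gene lists, with filled points for called members, open points for the others, a bar for each list's median and the number of members in brackets. Seed storage (median -2.55) and late embryo genes (median -1.28) lie to the left, and secondary wall (median 0.56) and brassinosteroid synthesis genes (median 0.53) to the right.

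Secondary walls are the thick, lignified walls of xylem. Of 14 genes of secondary wall enzymes and xylem proteases, 7 rose and 0 fell, and all 14 had differences above 0 (median 0.56). LAC17 (AT5G60020), a lignin laccase, stood at 8.21, 8.28 and 7.85 in PMEIox and at 9.58, 9.69 and 8.94 in cnu2, a 2.45-fold rise without overlap (adjusted p = 0.00333). IRX6 (AT5G15630), a COBRA-like protein of secondary wall cellulose, stood at 6.34, 6.43 and 6.37 against 7.53, 7.49 and 7.12 and rose by 1.0 ± 0.13 (SE, adjusted p = 0.00163). IRX12 (AT2G38080), also a lignin laccase, rose by 0.95 ± 0.16 (SE, adjusted p = 0.00788).

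CTL2 (AT3G16920), a chitinase-like gene, rose by 1.15, and its call was lost without PMEIox C, cnu2 A or cnu2 B (adjusted p up to 0.0698). Across the omissions of an array from 3 to 8 of the 14 genes were called, and in a fit of the 2 genotypes alone 3 were called. The cellulose synthase genes IRX3 and IRX1 had differences of 0.54 (adjusted p = 0.0614) and 0.46 (adjusted p = 0.189). Beside Col-0, 0 of the 14 genes were called in cnu2 (median -0.195), near the share of 0.187% of all loci called in that comparison.

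Of 7 NAC and MYB regulators of xylem, 1 rose, against 1.78% of all loci called higher. MYB46 (AT5G12870), a master switch of secondary wall genes, stood at 5.56, 5.48 and 5.65 in PMEIox and at 6.30, 5.95 and 6.22 in cnu2, a rise of 0.60 ± 0.12 (SE, adjusted p = 0.0239). The call was lost without PMEIox A, PMEIox B, cnu2 A or cnu2 C (adjusted p up to 0.0851) and after the arrays were centred on reference genes (adjusted p = 0.06). VND6, VND7, SND1 and NST1, the NAC factors above it, had differences from -0.14 to 0.06 and were not called. Of 13 genes of monolignol synthesis, which supplies lignin, 3 rose and 0 fell (median 0.32), against the same share. They were 4CL1 (AT1G51680) at 0.73 ± 0.10 (SE, adjusted p = 0.00241), CAD5 (AT4G34230) at 0.57 and 4CL2 (AT3G21240) at 0.53, the last of which did not pass without cnu2 A (adjusted p = 0.0518).

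Among enzymes of pectin and the primary wall, the called genes fell, though no list but that of XTH genes had more than 2 of them. Of 33 pectin methylesterases, the targets of inhibitors such as PMEI5, 2 fell and 0 rose (median -0.16). AT5G04970 stood at 6.58, 6.77 and 6.33 in PMEIox and at 5.40, 5.29 and 5.44 in cnu2, a fall of 1.19 ± 0.13 (SE, adjusted p = 0.000372). PME12 (AT2G26440) stood at 8.61, 8.22 and 8.16 against 7.31, 7.12 and 7.30 and fell by 1.09 ± 0.15 (SE, adjusted p = 0.00179). Neither gene's groups overlapped. The called share, 2 of 33, is near the 3.25% of all loci. Of 11 inhibitors other than PMEI5, 0 were called, with 4 at an unadjusted p under 0.05, and with the arrays centred on the reference genes 1 fell.

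Of 33 xyloglucan-modifying XTH genes, 6 fell and 0 rose (median -0.24), against 1.48% of all loci called lower. Leaving out PMEIox A or cnu2 B gave 3 falls each, the other omissions gave 4 to 7, and 1 rise was called without cnu2 C. XTH33 (AT1G10550) stood at 8.62, 8.64 and 8.52 in PMEIox and at 7.76, 7.70 and 7.67 in cnu2, a fall of 0.88 ± 0.13 (SE, adjusted p = 0.00245). XTH9 (AT4G03210) stood at 8.42, 7.95 and 8.11 against 7.15, 6.73 and 7.23 and fell by 1.12 ± 0.18 (SE, adjusted p = 0.00564). XTH19 (AT4G30290) fell by 1.12, and its call was lost without PMEIox A, PMEIox B, cnu2 B or cnu2 C (adjusted p up to 0.073). XTH11, XTH31 and TCH4 were the other called members, and the calls of XTH11 and XTH31 were lost in 5 and 4 omissions (adjusted p up to 0.0726 and 0.106). The 10 XTH genes with differences above 0 included XTH17 at 1.02, which did not pass (adjusted p = 0.21).

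Of 25 expansins, which loosen walls, 2 fell and 0 rose (median -0.06), against 1.48% of all loci called lower. EXPA12 (AT3G15370) fell by 0.61 and EXPA9 (AT5G02260) by 0.62, and each call was lost in 4 omissions of an array (adjusted p up to 0.0995 and 0.096). PGAZAT (AT2G41850), a polygalacturonase gene, was the called member of 11 pectin depolymerases and fell by 0.59. QUA2 (AT1G78240), a pectin methyltransferase gene, was the called member of 13 pectin synthesis genes and fell by 0.47. The PGAZAT call was lost in 4 omissions and the QUA2 call in 3 (adjusted p up to 0.0831 and 0.0725). Of 12 genes of primary wall cellulose and xyloglucan synthesis 0 were called, with 4 at an unadjusted p under 0.05. The same was so for 12 wall-sensing receptor kinases, among them FER, THE1 and WAK1 to WAK5, with 0 at an unadjusted p under 0.05.

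Of 26 auxin response genes, 2 rose and 1 fell, against 3.25% of all loci called. SAUR9 (AT4G36110) stood at 7.83, 8.0 and 7.93 in PMEIox and at 6.76, 6.93 and 6.78 in cnu2, a fall of 1.1 ± 0.16 (SE, adjusted p = 0.0035). IAA29 (AT4G32280), an auxin signalling repressor gene, rose by 0.86 ± 0.13 (SE, adjusted p = 0.0043). LBD29 (AT3G58190) rose by 0.82, just inside the threshold, and its call was lost in 11 of the 12 fits without an array (adjusted p up to 0.148).

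Of 16 gibberellin genes 1 rose and 3 fell, against 3.25% of all loci called. Without PMEIox A, PMEIox B or cnu2 B 0 falls were called, and without cnu2 A or cnu2 C 1. GASA6 (AT1G74670), a gibberellin-regulated peptide gene, rose by 1.04 ± 0.18 (SE, adjusted p = 0.00716). GA2OX8 (AT4G21200), whose enzyme inactivates gibberellin precursors, fell by 0.94, and the synthesis genes GA3OX1 (AT1G15550) and GA20OX2 (AT5G51810) fell by 0.59 and 0.84. The calls of these 3 falls were lost in 5, 4 and 9 omissions of an array (adjusted p up to 0.0709, 0.0857 and 0.162).

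ACS4 (AT2G22810), a gene of ethylene synthesis, stood at 5.53, 5.5 and 5.42 in PMEIox and at 4.20, 4.32 and 3.99 in cnu2. It fell by 1.32 ± 0.14 (SE, adjusted p = 0.000413) and was the called member of 16 ethylene genes. JR1 (AT3G16470), a jasmonate-responsive lectin gene, stood at 6.72, 6.86 and 6.98 against 8.50, 8.46 and 8.40. It rose 3.03-fold without overlap (adjusted p = 2.92e-05) and was the called member of 16 jasmonate genes.

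TGG2 (AT5G25980), a myrosinase gene that breaks down glucosinolates, stood at 8.90, 8.48 and 8.50 in PMEIox and at 6.82, 6.83 and 6.80 in cnu2, a 3.5-fold fall (adjusted p = 5.63e-05). The other 16 genes of the glucosinolate list were not called. FER1 (AT5G01600), a ferritin gene, stood at 11.20, 11.21 and 11.50 against 10.21, 10.23 and 10.53 and fell by 0.98 ± 0.16 (SE, adjusted p = 0.00587). The iron regulator gene bHLH39 (AT3G56980) fell by 0.68, a call lost without PMEIox C or cnu2 A (adjusted p up to 0.0585), and the other 4 genes of the iron list were not called.

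Single members of further lists were called, against 3.25% of all loci. WSD1 (AT5G37300), a wax ester synthase gene, was the called member of 14 cuticle genes and rose by 1.25 ± 0.17 (SE, adjusted p = 0.00228). PGIP2 (AT5G06870), which encodes an inhibitor of polygalacturonases, fell by 0.62 among 14 defence genes, and HSP17.4 (AT3G46230) fell by 0.78 among 8 heat shock genes. TT5 (AT3G55120), a chalcone isomerase gene, rose by 0.73 among 11 flavonoid genes, and PIF4 (AT2G43010), a growth-promoting bHLH gene, rose by 0.62 among 4 PIF genes. The TT5 call was lost in 6 omissions and the PIF4 call in 5 (adjusted p up to 0.117 and 0.103). Of 10 cold and dehydration genes, 10 clock genes and 6 cell division genes 0 were called, with 3, 1 and 2 at an unadjusted p under 0.05.

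Markers of organs that whole seedlings could hold in different amounts were set beside these results. Of 9 root markers 0 were called, with 1 at an unadjusted p under 0.05. Their mean ran from 6.91 to 6.98 on the PMEIox arrays and from 6.91 to 7.01 on the cnu2 arrays. Of 16 root hair genes 2 fell and 0 rose, against 1.48% of all loci called lower. The list mean ran from 4.53 to 5.07 in PMEIox and from 4.22 to 4.25 in cnu2. EXT10 (AT5G06640), an extensin gene, stood at 5.32, 6.67 and 4.64 against 3.47, 3.17 and 3.92 and fell by 2.03, and PRP3 (AT3G62680) fell by at least 1.09, since its cnu2 mean was among the lowest values. Their calls were lost in 3 and 4 omissions of an array (adjusted p up to 0.089 and 0.075), and the regulators RHD6 and RSL4 differed by 0.03 and 0.00. The part of root hairs in the other results was not tested.

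Of 16 light and greening genes 0 were called, with 2 at an unadjusted p under 0.05. PORA and PORB, abundant in dark-grown seedlings, had means of 9.27 and 11.31 in PMEIox and 8.85 and 11.18 in cnu2. RBCS1A, which was to be low in darkness, stood at 13.34 in both genotypes, near the top of the scale of these arrays at 13.9. That marker was thus not low, in the same way in both. The series has no light-grown array and levels of different genes are not comparable, so RBCS1A cannot decide on the label of growth in darkness. Of 8 reference genes 0 were called, with 1 at an unadjusted p under 0.05. Between pairs of the 6 arrays, Pearson correlations over all loci were 0.986 to 0.994, and loci are no independent replicates.

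Whether the change in cnu2 differed from that in cnu1 was tested by comparing cnu2 with cnu1 directly, since both comparisons with PMEIox use the same PMEIox arrays. At 158 of 27827 loci (0.568%) cnu2 and cnu1 differed, with 53 higher in cnu2 (0.19%) and 105 lower (0.377%). A difference of at least 2-fold was measured at 59 of them (0.212%). Sulfur shortage genes, low oxygen genes and loci whose cnu2 values overlapped those of PMEIox were among them. Leaving out cnu1 A, B or C gave 66, 74 and 76 loci, leaving out cnu2 A, B or C gave 84, 77 and 79, and a fit of the 2 genotypes alone gave 89.

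AT2G16005 stood at 4.32, 4.89 and 5.25 in PMEIox, at 4.59, 5.49 and 5.26 in cnu2, at 8.07, 8.0 and 8.31 in cnu1 and at 6.96, 7.55 and 7.28 in Col-0. The cnu2 values overlapped those of PMEIox and lay below all values of cnu1 and of Col-0. The difference from cnu1 was -3.01 ± 0.26 (SE, adjusted p = 0.000529) and that from Col-0 was -2.15 ± 0.26 (SE, adjusted p = 0.00734). The latter was not called without Col-0 B (adjusted p = 0.0528). AT2G17080 had the same order of levels, with cnu2 at 3.88, 3.45 and 4.08, PMEIox at 3.53, 3.51 and 3.91, cnu1 at 5.99, 5.60 and 6.28 and Col-0 at 5.82, 5.61 and 5.40. It differed by -2.15 from cnu1 and by -1.81 from Col-0.

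Further loci of this kind, chosen after their values were seen, were AT2G37030, a SAUR-like gene, AT4G37409 and GH9B8 (AT2G32990), a glycosyl hydrolase gene. GH9B8 stood at 6.93, 6.99 and 6.92 in PMEIox, at 7.13, 7.10 and 6.92 in cnu2, at 7.79, 7.73 and 8.12 in cnu1 and at 8.01, 7.96 and 8.0 in Col-0. Its difference was -0.83 ± 0.11 from cnu1 (SE, adjusted p = 0.00557), -0.94 ± 0.11 from Col-0 (SE, adjusted p = 0.00596) and 0.10 ± 0.11 from PMEIox (SE, adjusted p = 0.69). AT2G37030 differed by -1.38 from cnu1 and -1.08 from Col-0, and AT4G37409 by -1.02 from each. Against Col-0 the call of AT4G37409 was lost in 6 omissions (adjusted p up to 0.128). ACS8 (AT4G37770), an ethylene synthesis gene, had the opposite order, with means of 7.10 in PMEIox, 6.94 in cnu2, 6.07 in cnu1 and 5.69 in Col-0. It differed by 0.87 from cnu1 (adjusted p = 0.00937) and by 1.25 from Col-0 (adjusted p = 0.00498).

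**Figure D4:**
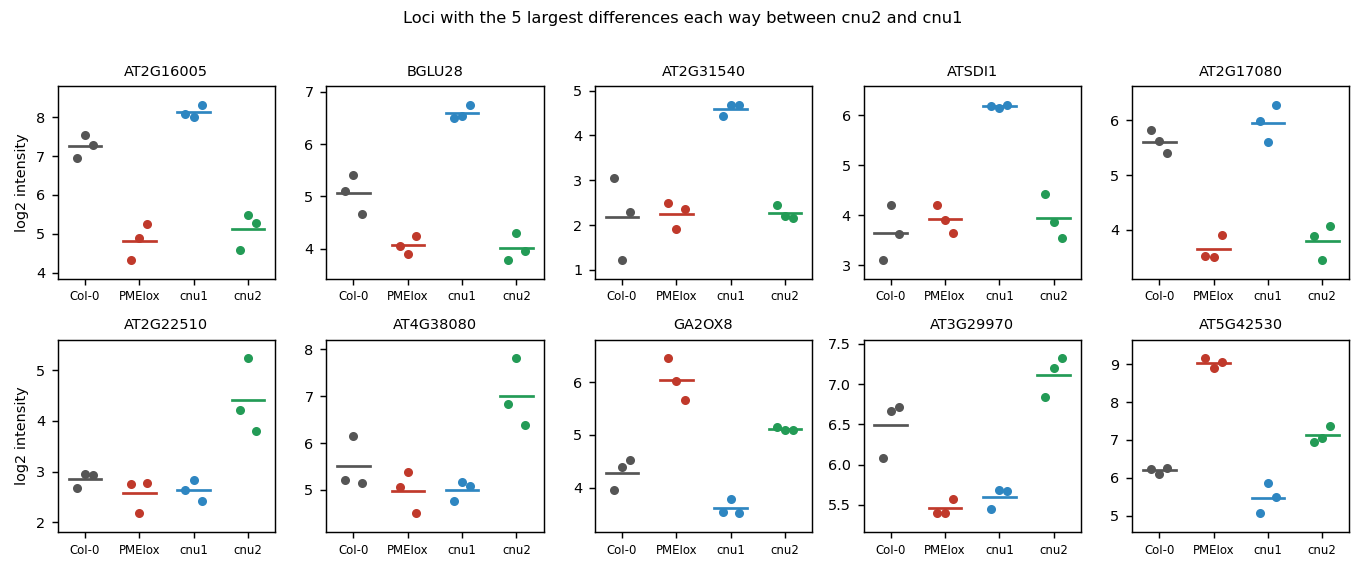
Log2 intensity on each of the 12 arrays, by genotype, for the 5 loci lowest and the 5 loci highest in cnu2 against cnu1 among called loci without overlap, with points for arrays and lines for means. At AT2G16005 and AT2G17080 cnu2 sits with PMEIox near 5.1 and 3.8 while Col-0 and cnu1 are higher, and at AT4G38080 and AT2G22510 cnu2 sits above the other 3 genotypes.

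Sulfur shortage genes respond when sulfate runs low. Against PMEIox 2 of 14 rose and 1 fell in cnu2 (median 0.30), and against cnu1 6 of 14 were lower and 0 higher in cnu2 (median -0.59). Over all loci 3.25% were called against PMEIox and 0.377% were called lower against cnu1. Beside Col-0, 0 of the 14 genes were called in cnu2 (median -0.00431), near the share of 0.187% of all loci called in that comparison. The list mean ran from 5.51 to 5.64 on the cnu2 arrays and from 5.499 to 5.69 on those of Col-0. On the cnu1 arrays it ran from 6.35 to 6.52, above both. BGLU28 (AT2G44460), a glucosidase gene, stood at 4.04, 3.90 and 4.24 in PMEIox, at 3.78, 4.30 and 3.95 in cnu2 and at 6.5, 6.54 and 6.75 in cnu1. The cnu2 and PMEIox values overlapped, and the difference from cnu1 was -2.59 ± 0.19 (SE, adjusted p = 0.000236). ATSDI1 (AT5G48850), a gene induced by sulfur deficiency, stood at 4.20, 3.91 and 3.64 in PMEIox, at 4.42, 3.86 and 3.54 in cnu2 and at 6.19, 6.14 and 6.20 in cnu1. Its difference from cnu1 was -2.23 ± 0.26 (SE, adjusted p = 0.00338).

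APR1 (AT4G04610), a reductase gene of sulfate assimilation, stood at 4.79, 5.06 and 4.72 in PMEIox, at 5.73, 5.35 and 5.68 in cnu2 and at 6.39, 6.52 and 6.41 in cnu1. The cnu2 values lay between those of the other 2 lines, 0.73 above PMEIox (adjusted p = 0.0201) and 0.85 below cnu1, written -0.85 (adjusted p = 0.0235). These calls were lost in 4 and 5 omissions of an array (adjusted p up to 0.0801 and 0.104). LSU1, SULTR1;2 and GGCT2;1 were the other members lower than in cnu1, by -1.20, -0.61 and -0.84, of which the first is a lower bound in size because LSU1 was among the lowest values in cnu2. The calls of SULTR1;2 and GGCT2;1 were each lost in 8 omissions (adjusted p up to 0.139 and 0.144). Of the members called against PMEIox, the vacuolar sulfate exporter gene SULTR4;2 (AT3G12520) rose by 0.51, a call lost in 7 omissions (adjusted p up to 0.115) and after the arrays were centred on reference genes (adjusted p = 0.0653), and BGLU30 (AT3G60140) fell by 0.71 (adjusted p = 0.00175).

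Some genes of the low oxygen response were higher in cnu2 than in the other lines with the transgene. Of 12 such genes 4 rose and 0 fell against PMEIox (median 0.31), and 3 were higher and 0 lower against cnu1 (median 0.46). The shares of all loci called higher were 1.78% and 0.19%. Beside Col-0, 0 of the 12 genes were called in cnu2 (median 0.183), near the share of 0.187% of all loci called in that comparison. The list mean ran from 6.26 to 6.32 on the cnu2 arrays and from 5.89 to 6.29 on those of Col-0. HB1 (AT2G16060), a plant haemoglobin gene, stood at 7.21, 7.48 and 7.67 in PMEIox, at 8.44, 8.45 and 8.61 in cnu2 and at 7.31, 7.52 and 7.5 in cnu1. The cnu2 values were above all values of both lines, by 1.04 ± 0.15 over PMEIox (SE, adjusted p = 0.00229) and by 1.06 ± 0.15 over cnu1 (SE, adjusted p = 0.00744). In Col-0 HB1 stood at 7.97, 8.19 and 8.49, which overlapped cnu2.

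PDC1 (AT4G33070), a fermentation enzyme gene, stood at 4.61, 5.24 and 5.27 in PMEIox, at 6.12, 6.72 and 6.12 in cnu2, at 4.97, 4.37 and 5.16 in cnu1 and at 5.33, 5.76 and 5.80 in Col-0. The cnu2 arrays lay above those of the other 3 genotypes, and the rise over PMEIox was 1.28 ± 0.25 (SE, adjusted p = 0.016). The difference of PDC1 from Col-0 was not called, and cnu2 and Col-0 values did not overlap at 15.5% of all loci, with either genotype above. SUS4 (AT3G43190), a sucrose synthase gene, rose by 1.23, and ADH1 (AT1G77120), the alcohol dehydrogenase gene, rose by 0.81. The calls of PDC1, SUS4 and ADH1 were lost in 2, 4 and 8 omissions of an array (adjusted p up to 0.0709, 0.0824 and 0.158), and that of ADH1 after the arrays were centred on reference genes (adjusted p = 0.0737). The oxygen response regulators HRE1, HRE2 and HRA1 were not called, with differences from -0.06 to 0.17. Across the omissions from 1 to 5 of the 12 genes were called.

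**Figure D5:**
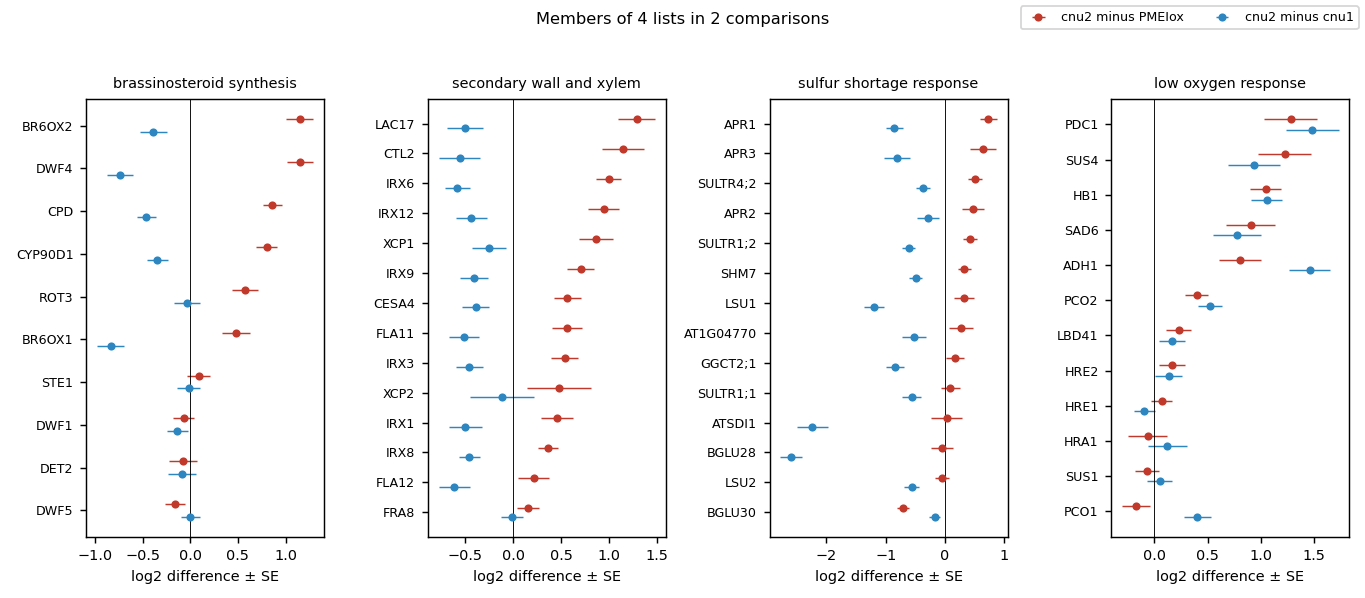
Log2 difference ± SE of cnu2 against PMEIox (red) and against cnu1 (blue) for the members of 4 lists. Brassinosteroid synthesis and secondary wall genes lie mostly right of 0 in red and left of 0 in blue, the sulfur genes ATSDI1 and BGLU28 lie near 0 in red and below -2.2 in blue, and PDC1, SUS4, HB1 and ADH1 lie right of 0 in both.

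Other loci were higher in cnu2 than in cnu1. AT4G38080 stood at 5.07, 5.37 and 4.50 in PMEIox, at 6.83, 7.81 and 6.38 in cnu2, at 4.76, 5.17 and 5.09 in cnu1 and at 5.22, 6.15 and 5.15 in Col-0. Its cnu2 values lay above those of all 3 other genotypes, by 2.03 ± 0.36 over PMEIox (SE, adjusted p = 0.00904) and 2.0 ± 0.36 over cnu1 (SE, adjusted p = 0.0309), while the 1.5 over Col-0 did not pass (adjusted p = 0.15). The call against cnu1 was lost in 5 omissions (adjusted p up to 0.123). AT2G22510 had the same order, with cnu2 at 4.21, 5.23 and 3.81 and PMEIox at 2.77, 2.18 and 2.77, the latter among the lowest values, so its rise of 1.84 (adjusted p = 0.00475) is a lower bound. AT3G29970 was 1.66 above PMEIox and 1.52 above cnu1 (adjusted p = 0.000313 and 0.00275).

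Some loci stood between PMEIox and cnu1, and AT4G11320 also stood between PMEIox and Col-0. AT4G11320 stood at 8.80, 9.04 and 9.24 in PMEIox, at 10.77, 10.74 and 10.76 in cnu2, at 11.72, 12.04 and 11.99 in Col-0 and at 11.71, 11.97 and 11.89 in cnu1. The 3 cnu2 values were nearly alike and overlapped with no other genotype. They lay 1.73 ± 0.13 above PMEIox (SE, adjusted p = 3.18e-05), differed from Col-0 by -1.16 ± 0.13 (SE, adjusted p = 0.00584) and from cnu1 by -1.1 ± 0.13 (SE, adjusted p = 0.00334). AT5G42530 stood at 9.15, 8.90 and 9.06 in PMEIox, at 6.95, 7.06 and 7.37 in cnu2 and at 5.06, 5.86 and 5.51 in cnu1. It fell by 1.91 from PMEIox and stayed 1.65 above cnu1 (adjusted p = 0.00192). GA2OX8 was likewise between PMEIox and cnu1, 1.5 ± 0.19 above cnu1 (SE, adjusted p = 0.00437). Its call against PMEIox was lost in 5 omissions of an array (adjusted p up to 0.0709), and it was not called against Col-0.

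Thalianol is a root triterpene made by a cluster of neighbouring genes. CYP705A5 (AT5G47990), an oxidase of the cluster, stood at 4.19, 4.12 and 3.95 in PMEIox, at 5.87, 6.5 and 5.32 in cnu2, at 7.33, 7.34 and 7.22 in Col-0 and at 7.38, 7.0 and 7.56 in cnu1. It rose by 1.81 ± 0.24 over PMEIox (SE, adjusted p = 0.0015) and differed from cnu1 by -1.41 ± 0.24 (SE, adjusted p = 0.0206). The cnu1 difference was lost without cnu1 A, cnu1 C or cnu2 A (adjusted p up to 0.0956). The clustered genes THAS1, the thalianol synthase, and THAH were lower in cnu2 than in cnu1, by -1.29 (adjusted p = 0.0151) and -1.42 (adjusted p = 0.00515), and were not called against PMEIox, at -0.43 (adjusted p = 0.32) and 0.57 (adjusted p = 0.126). The THAS1 difference from cnu1 was lost in 3 omissions (adjusted p up to 0.0851). The marneral synthase gene MRN1 (AT5G42600), of a separate cluster, fell by 1.02, a call lost in 5 omissions (adjusted p up to 0.11).

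Of the 10 brassinosteroid synthesis genes 2 were lower in cnu2 than in cnu1 and 0 were higher. DWF4 differed by -0.74 ± 0.14 (SE, adjusted p = 0.0366), a call lost in 9 omissions of an array (adjusted p up to 0.144), and BR6OX1 by -0.84 (adjusted p = 0.0235), a call lost in 5 omissions (adjusted p up to 0.103). Of the 14 secondary wall genes 0 were called between cnu2 and cnu1, where 0.568% of all loci were called. All 14 differences were below 0, with a median of -0.46 against 0.000651 over all loci. The 14 genes were read on the same arrays, so their signs are not independent. Of the storage genes 0 of 10 were called, with a median of 0.21. EB1A differed by -0.25 ± 0.16 (SE, adjusted p = 0.76), SESA3 by 0.35 ± 0.19 (SE, adjusted p = 0.692) and EARLI1 by 1.47 ± 0.37 (SE, adjusted p = 0.152).

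Against Col-0, 52 of 27827 loci passed the test in cnu2 (0.187%), with 30 higher (0.108%) and 22 lower (0.0791%), and 12 differed by at least 2-fold (0.0431%). PMEI5 was among them, 6.70 ± 0.67 above Col-0 (SE, adjusted p = 0.00498). Col-0 A read 8.19 against 5.05 and 4.49 on Col-0 B and C, so the PMEI5 difference was 7.84 without Col-0 A and 5.99 without Col-0 C, and in the fit of the 2 genotypes alone it did not pass (adjusted p = 0.104). Leaving out any 1 of the 12 arrays gave from 10 to 35 loci, and a limma fit of these 2 genotypes alone gave 0, with 2798 at an unadjusted p under 0.05. With centring on the reference genes 11 loci were higher and 30 lower. With the replicate letter as a block 41 loci were called, 26 higher and 15 lower, of which 27 were shared with the fit without the block. The brassinosteroid-induced gene PRE6 was 0.46 above Col-0 (adjusted p = 0.0457), a call lost with the block (adjusted p = 0.0608), with reference centring (adjusted p = 0.112) and in all 12 omissions (adjusted p up to 0.17).

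At the threshold of the comparison with PMEIox, AT5G62720, AT1G74770 and AT2G01460 were just inside, with differences of 0.45, 0.36 and 0.35. TSBtype2 (AT5G38530), GATA3 (AT4G34680) and AT3G52520 were just outside, with -0.38, 0.40 and 0.43.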

How the data were processed

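Total RNA of whole seedlings was measured on 12 arrays, 3 for each of 4 genotypes, with labelled cRNA prepared by the Affymetrix protocol, per the labels. The deposited table holds 1 value per locus and array, read as log2 intensity from its range of 0.785 to 13.9. All 12 columns hold the same sorted values, so the authors had set the arrays to a common distribution before they were deposited. The array type, the software, the background correction and the way probes were summarised are not given in the sources used here, and a transcript that shares probes with a close copy cannot be told from it. Levels of different genes on such a scale are not comparable.

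Values were used as deposited. A model of 4 genotype means was fitted to all 12 arrays with limma 3.58.1 in R 4.3.3 (lmFit and eBayes), tested two-sided, with p-values adjusted over the 27827 loci by the method of Benjamini and Hochberg. Calls were made below an adjusted p of 0.05. Limma's test was checked on simulated normal values with the measured spread, drawn independently for each array. It called 38%, 84%, 100% and 100% of the loci set to differ by 0.5, 1, 2 and 3 on the log2 scale, with 50 loci of each size. It also called 14 unchanged loci, so some of the loci called in the measured data may be false calls too. A difference near 0.5 that was not called is thus no sign of equal levels. The 3 arrays a genotype limit the precision, with a median standard error of 0.137 on the log2 scale. RefSeq's table of assembly TAIR10.1 named 27241 loci, and 586 kept their locus identifier. A genotype mean below the 15th percentile of all values was treated as a bound.

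Named were PMEI5, RLP44 and BRI1, the 10 largest rises and falls among called loci without overlap, up to 4 called members of each of 43 gene lists by smallest adjusted p, the 5 largest differences each way from cnu1, the 2 neighbours on each side of RLP44 and runs of at least 3 neighbouring called loci. Members of a list outside this rule are named to describe the list, and single loci chosen after their values were seen are marked. The groups, members and lists were chosen with earlier results of these data known.

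The alternatives were array weights, a trended and robust variance, median centring, quantile normalization, centring on 8 reference genes, the replicate letter as a block, a fit of 2 genotypes alone, a minimum fold, a filter on the lowest loci and the omission of each array. Deviations from the genotype means of cnu2 and PMEIox arrays with the same letter correlated across genes at 0.0912, 0.101 and 0.19. With cnu1 they correlated at 0.00283, -0.01524 and -0.1365, and with Col-0 at 0.1002, 0.1373 and 0.1725. The letters are not stated to mark a shared harvest, so they were taken to pair the arrays only with Col-0, where each correlation exceeded 0.1. There the value with the block is printed where it changes a call. This cut falls between 0.0912 with PMEIox and 0.1002 with Col-0, which hardly differ. Arrays of cnu2 and PMEIox with different letters correlated at -0.131 to 0.0351. The cut therefore cannot decide whether the letters pair cnu2 with PMEIox, and counts against PMEIox are given with and without the block.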

Additional observations from a re-analysis of the deposited data

Results flagged for a closer look

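At 158 loci the shift of cnu2 from PMEIox differed from that of cnu1, by the direct test between the suppressors. The 20 of these picked by the naming rule are given as the log2 difference of cnu2 minus cnu1. The lowest were AT2G16005 at -3.01, BGLU28 at -2.59, AT2G31540 at -2.32, ATSDI1 at -2.23 and AT2G17080 at -2.15. For AT2G31540 the value is a lower bound in size, since cnu2 stood at 2.45, 2.2 and 2.15, among the lowest values, and cnu1 at 4.42, 4.67 and 4.68.

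Among the 10 largest rises against PMEIox, cnu2 was lower than cnu1 at CYP705A5 (-1.41), AT4G11320 (-1.1) and AT5G57785 (-1.07), and higher at AT4G38080 (2.0) and AT2G22510 (1.78). Of the loci named from the comparison with cnu1, cnu2 was also higher at AT5G42530 (1.65) and AT3G29970 (1.52). The value of AT2G22510 is a lower bound, since cnu1 was among the lowest values there, and its call was lost on leaving out any 1 of the 3 cnu1 arrays (adjusted p up to 0.0895). The call of AT5G57785 was lost in 5 of the 12 fits that left out an array (adjusted p up to 0.124).

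The remaining loci picked by the rule were members of gene lists. Of these, cnu2 was lower than cnu1 at APR1 (-0.85), DWF4 (-0.74) and IAA29 (-0.70). It was higher at GA2OX8 (1.5), PDC1 (1.49), ADH1 (1.46), HB1 (1.06) and AT5G04970 (0.68). The calls of IAA29 and AT5G04970 were lost in 9 and 7 omissions (adjusted p up to 0.16 and 0.135), and that of PDC1 without cnu1 A, cnu1 B or cnu2 B (adjusted p up to 0.0803). With centring on the reference genes the adjusted p of AT5G04970 was 0.0581. Outside the rule, the list members ACS11 and AZI1 differed from cnu1 by -0.92 (adjusted p = 0.0478) and 0.99 (adjusted p = 0.0149). These calls were lost in 10 and 4 omissions (adjusted p up to 0.173 and 0.0763). Other list members outside the rule that differed from cnu1 are given above.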

How the results depend on the processing

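The count against PMEIox was 905 (494 higher, 411 lower). A trended and robust variance gave 1490 (817 and 673), the 2 genotypes alone 441 (220 and 221), a minimum fold of 2 gave 196 (81 and 115), centring on the reference genes gave 267 higher, and leaving out the lowest 40% of loci gave 760 higher. Omitting 1 array gave from 395 to 874 loci, with 194 to 460 higher and 201 to 414 lower. With the replicate block, though the letters are not shown to pair cnu2 with PMEIox or cnu1, 975 loci were called (522 higher and 453 lower), of which 790 were shared with the fit without it. Among the named calls against PMEIox, the block ended that of LBD29 (adjusted p = 0.0501). The block gave 172 against cnu1 (130 shared) and 41 against Col-0 (27 shared). Of the reported differences from cnu1 it ended the calls of DWF4 (adjusted p = 0.0509) and GGCT2;1 (adjusted p = 0.0665). Of the named differences from Col-0 it ended the calls of CYP705A5 (adjusted p = 0.0707) and PRE6 (adjusted p = 0.0608).

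Against cnu1 the count of 158 (53 and 105) became 267 (108 and 159), 89 (23 and 66) and 59 (20 and 39) under the same first 3 alternatives, and omissions gave from 66 to 160, with 17 to 54 higher and 42 to 106 lower. Against Col-0 the count of 52 (30 and 22) became 236 (136 and 100), 0 by limma with 2798 at an unadjusted p under 0.05, and 12 (5 and 7). Leaving out the lowest loci gave 117 (70 and 47), centring on the reference genes gave 11 higher, and omissions gave from 10 to 35, with 4 to 20 higher and 5 to 15 lower. The causes were not tested.

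Of the named results, RLP44, which was not called, ranged from -0.072 to 0.0254 over the omissions and changed sign to 0.0195 without PMEIox A, 0.0178 without cnu2 A and 0.0254 without cnu2 C. bZIP5, also not called, ranged from -0.1411 to 0.1034 and changed sign to 0.078 and 0.1034 without PMEIox A or cnu2 A. Median centring and quantile normalization left the counts at 905, 158 and 52. Another probe summary could not be tried, as the table holds 1 value per locus. Signal near the lowest values limits what can be said of RLP44.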

Other observations

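Single loci outside the named lists and the largest differences, chosen after their values were seen, also set cnu2 apart from other genotypes. AT3G54580 fell by 1.53 against PMEIox (adjusted p = 0.00424) and differed by -2.12 from cnu1 (adjusted p = 0.00271). NRT1.8, a nitrate transporter gene, fell by 0.97 against PMEIox (adjusted p = 0.000651). NUDT8, a Nudix hydrolase gene, differed by -1.68 from cnu1 (adjusted p = 0.000551). AT3G14380 fell by 1.17 against PMEIox and stayed 1.13 above cnu1 and 1.01 above Col-0 (adjusted p = 0.000744, 0.00433 and 0.0166), the last of which was lost in 5 of the 12 fits that left out an array (adjusted p up to 0.104).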
